A study of Homo sapiens with 2 samples.

Results

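The human mitochondrial genome is a small circle of DNA that carries its own genes. It was examined here in RNA from live and processed Stage 6 cells. The members were all genes whose locus in the deposited tables lies on chrM, 37 of the 55797 genes listed for each library. They comprised 13 mRNA genes, 2 rRNA genes and 22 tRNA genes. The live library was made from unfixed, unsorted cells and the processed library from cells that had been fixed in paraformaldehyde, permeabilized, stained with antibodies and run through a cell sorter from which every cell was kept. This sequence of steps is named MARIS and allows RNA to be recovered from cells sorted on proteins inside the cell. The labels give H1, an established line of human embryonic stem cells, for both samples, after differentiation to Stage 6, the final stage of a pancreatic protocol. Whether both came from 1 culture is not given in the sources used here. RNA was also extracted with different kits, RNeasy for live and a modified RecoverAll procedure for processed cells, and the effect of the kit and that of the other steps cannot be told apart. Poly-A purified RNA gave the libraries, which were read from both ends for 80 nt. There was 1 library per group, so no difference below has a replicate check and no test was made. The comparison asks whether fixation, staining, sorting and the extraction that follows alter how much of each mitochondrial RNA is recovered.

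Mitochondrial DNA encodes only a few proteins, all of them core subunits of the respiratory chain or of ATP synthase, together with the rRNAs and tRNAs needed to translate them inside the organelle. Both strands are transcribed as long precursors, and most mRNAs and rRNAs are released when the tRNAs lying between them are cut out. Most mitochondrial mRNAs receive short poly-A tails after cleavage, which allows poly-A purification to capture them. Their abundance is high in every cell that respires, and each cell holds many copies of the genome.

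The tRNA arrangement is visible in the reference sequence (GRCh37, mitochondrial genome of 16569 bases), where all 37 loci of the deposited tables stand at the annotated start and end. Of the 13 mRNA genes, 6 stop short of a complete stop codon. For 5 of them the gene ends in a lone T and for 1, MT-ND1, in TA, and the codon is known to be completed by the poly-A tail. The last 24 bases of these 6 genes are shown 5′ to 3′, with the incomplete stop in capitals. Then follow 3 genes with a complete stop, also in capitals. For these 3 the bases shown are the end of the coding gene, and no tRNA gene of the same strand follows at once. Where their transcripts end is not shown.
MT-ND1 (chrM:3307-4262, plus strand): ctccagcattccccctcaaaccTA
MT-ND2 (chrM:4470-5511, plus strand): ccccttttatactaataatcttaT
MT-CO3 (chrM:9207-9990, plus strand): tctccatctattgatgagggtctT
MT-ND3 (chrM:10059-10404, plus strand): aaaaaggattagactgaaccgaaT
MT-ND4 (chrM:10760-12137, plus strand): acatcattaccgggttttcctctT
MT-CYB (chrM:14747-15887, plus strand): aaaacaaaatactcaaatgggccT
MT-CO2 (chrM:7586-8269, plus strand): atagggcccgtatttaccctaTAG
MT-CO1 (chrM:5904-7445, plus strand): gaacccgtatacataaaatctAGA
MT-ND6 (chrM:14149-14673, minus strand): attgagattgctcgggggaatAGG

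Each of the 6 genes with an incomplete stop is followed at once, with 0 bases between, by a tRNA gene of the same strand. MT-ATP8 and MT-ATP6 instead share 46 bases of the same strand, as do MT-ND4L and MT-ND4 with 7 bases, and each pair is known to be translated from 1 transcript. The shared bases are in capitals below, with 12 bases on either side. The first opens with the start codon of MT-ATP6 and closes with the stop codon of MT-ATP8.
MT-ATP8 and MT-ATP6 (shared bases chrM:8527-8572, plus strand): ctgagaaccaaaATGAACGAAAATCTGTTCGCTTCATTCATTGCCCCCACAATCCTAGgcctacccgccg
MT-ND4L and MT-ND4 (shared bases chrM:10760-10766, plus strand): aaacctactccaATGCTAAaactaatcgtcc

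Levels are given as FPKM, fragments per kilobase of exon scaled by library size, with the lower and upper bound deposited for each value. What share of a distribution the bounds span is not given in the sources used here, and they describe the precision within a library. Ratios are log2((processed FPKM + 1) / (live FPKM + 1)). Read counts were not analysed here, but low FPKM values of single-transcript genes fall on steps. By these steps the worth of 1 fragment was 1.07 times as high in the processed library, the slightly shallower of the pair. The steps were sought with gene length reduced by the mean fragment length, a reduction that weighs most on short genes. For the 15 mRNA and rRNA genes the distance from the value to its bound was between 0.232% (MT-CO1) and 1.38% (MT-ATP8) of the FPKM in live cells, and between 0.220% and 1.28% in processed cells. An FPKM of 1 was reached by 16004 genes of the live and 15957 of the processed library. All 8 endocrine markers examined reached this level in both libraries, with INS at 98.3 and 121 FPKM, and so did the 14 markers of other cell types that the culture could hold, including AFP at 460 and 550 FPKM and KRT19 at 543 and 518 FPKM.

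Mitochondrial RNAs were among the most abundant in both libraries. MT-CO1 had the highest FPKM of all genes in live and in processed cells. Of the 10 genes with the highest FPKM, 8 were mitochondrial in each library. The 37 genes made up 8.13% of the summed FPKM before processing and 9.98% after it, a share 1.23 times as high. The 13 mRNAs accounted for most of this, with 7.48% in live and 9.14% in processed cells, and the rRNAs for 0.649% and 0.835%.

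Every mRNA and rRNA of the mitochondrial genome had a higher FPKM in processed than in live cells, and for all 15 the bounds of the libraries did not overlap. Genes reaching 1 FPKM in either library or in both, 17326 in all, were taken as tested. Over them the ratio was above 0 for 41.7%, and 28.1% had separate bounds with the processed value higher. The median log2 ratio was 0.27 for the 13 mRNAs and -0.09 for all genes tested. The differences were modest in size. None of the 15 genes was more than 2-fold higher in processed cells, a size of difference seen in 6.57% of all genes tested, and none was more than 2-fold lower, as 6.19% were. The log2 ratios of the mRNAs extended from 0.09 for MT-ND4L to 0.54 for MT-ND6.

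**Figure D1:**
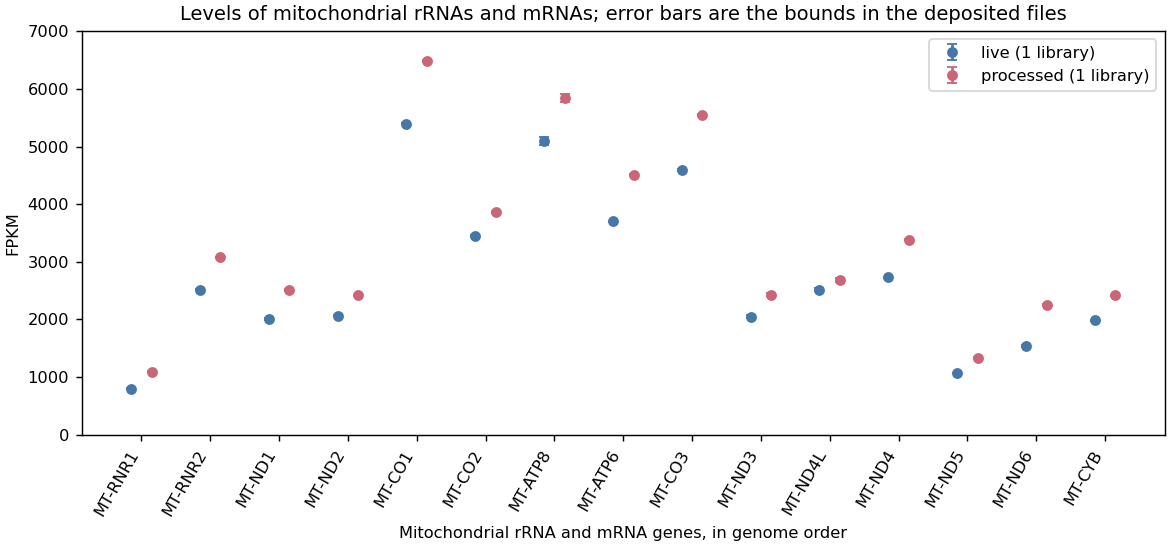
FPKM (y axis, linear) of the 2 mitochondrial rRNA and 13 mRNA genes in genome order (x axis) in the live and the processed library, with error bars for the deposited bounds. Each processed value lies above its live value, from MT-RNR1 at 798 and 1094 FPKM to MT-CO1 at 5399 and 6486 FPKM.

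Complex I, NADH dehydrogenase, is the entry point of electrons from NADH, and 7 of its subunits are encoded here. They belong to its membrane arm. MT-ND1 (chrM:3307-4262) had 2008 FPKM in live cells (bounds 1998 to 2018) and 2510 FPKM in processed cells (2499 to 2522), a log2 ratio of 0.32. MT-ND2 (chrM:4470-5511) had 2065 and 2417 FPKM, a log2 ratio of 0.23. These genes lie next to each other, with only tRNA genes between, and exchanged places in the order of levels, MT-ND2 being the higher in live cells and MT-ND1 in processed cells. MT-ND3 (chrM:10059-10404) had 2048 and 2430 FPKM, a log2 ratio of 0.25.

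MT-ND4 and MT-ND4L are the pair that shares 1 transcript. MT-ND4 (chrM:10760-12137) was the most abundant of the complex I mRNAs, at 2731 FPKM in live cells (2721 to 2740) and 3386 FPKM in processed cells (3375 to 3397), a log2 ratio of 0.31. MT-ND4L (chrM:10470-10766) had 2516 FPKM (2487 to 2544) and 2681 FPKM (2652 to 2711), a log2 ratio of 0.09. Although they are carried together, the log2 ratio of MT-ND4L was lower by 0.22, and the bounds allow differences from -0.26 to -0.18. MT-ND4L, with 297 bases, is a short gene, and the FPKM of short genes depends strongly on the fragment length of each library. The part of fragment length in this difference was not tested. Expressed per length, the level of MT-ND4L relative to MT-ND4 was 0.92 in live and 0.79 in processed cells.

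MT-ND5 and MT-ND6 lie end to end on opposite strands. MT-ND5 (chrM:12337-14148), the longest of the mRNA genes at 1812 bases, had the lowest level of the 13, at 1072 FPKM in live cells (1066 to 1077) and 1338 FPKM in processed cells (1332 to 1343). Its log2 ratio was 0.32. MT-ND6 (chrM:14149-14673) is the sole mRNA gene on the minus strand of the reference. It had 1541 FPKM in live cells (1528 to 1554) and 2244 FPKM in processed cells (2227 to 2260), the highest log2 ratio of the genome at 0.54. This exceeded the ratio of its neighbour MT-ND5 by 0.22 (0.19 to 0.26 within the bounds) and that of MT-CYB, its other neighbour among the mRNAs, by 0.26 (0.22 to 0.29). The strand setting of the quantification is not given in the sources used here. Without it, fragments of MT-ND6 and fragments of the opposite strand across the same bases cannot be told apart.

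Complex III passes electrons from ubiquinol to cytochrome c, and its cytochrome b is the single subunit encoded in mitochondria. MT-CYB (chrM:14747-15887) had 1989 FPKM in live cells (1980 to 1998) and 2422 FPKM in processed cells (2412 to 2432), a log2 ratio of 0.28. In processed cells its bounds overlapped those of MT-ND3 and of MT-ND2, so these 3 levels could not be placed in order. In live cells the bounds of MT-CYB did not overlap those of MT-ND1 above it or MT-ND6 below it. The upper bound of MT-CYB and the lower bound of MT-ND1 nearly met, both at 1998 FPKM after rounding.

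Complex IV, cytochrome c oxidase, reduces oxygen to water, and its 3 largest subunits are mitochondrial. MT-CO1 (chrM:5904-7445) had 5399 FPKM in live cells (5386 to 5411) and 6486 FPKM in processed cells (6471 to 6500), a log2 ratio of 0.26. MT-CO3 (chrM:9207-9990) had 4598 and 5543 FPKM, a log2 ratio of 0.27. MT-CO2 (chrM:7586-8269) stood below them, at 3448 FPKM (3431 to 3464) and 3863 FPKM (3845 to 3881), and its log2 ratio of 0.16 was the second lowest of the mRNAs. All 3 were above every mitochondrial complex I mRNA in both libraries. MT-CO1 was 5.04 times as high per length as MT-ND5 in live cells and 4.85 times in processed cells.

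Complex V, ATP synthase, contains 2 mitochondrial subunits, which belong to its membrane part. MT-ATP8 (chrM:8366-8572), at 207 bases the shortest of the mRNA genes, had the second highest FPKM of all genes, 5093 in live cells (5022 to 5163) and 5839 in processed cells (5764 to 5914), a log2 ratio of 0.20. MT-ATP6 (chrM:8527-9207), on the same transcript, had 3699 FPKM (3682 to 3716) and 4506 FPKM (4487 to 4526), a log2 ratio of 0.28. The upstream gene was thus the higher of the pair, 1.38 times in live and 1.30 times in processed cells. As with MT-ND4L, the shorter gene of the pair had the lower log2 ratio, here by 0.09 (0.14 to 0.04 within the bounds). The part of fragment length was not tested here either, and it enters the level of so short a gene as well. How fragments that span the shared bases were divided between the genes is not given in the sources used here.

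The rRNAs of the mitochondrial ribosome were also present after poly-A purification. MT-RNR1 (chrM:648-1601), the RNA of the small subunit, had 798 FPKM in live cells (791 to 804) and 1094 FPKM in processed cells (1087 to 1102), a log2 ratio of 0.46, the second highest of the genome. MT-RNR2 (chrM:1671-3229), the RNA of the large subunit, had 2519 FPKM (2510 to 2527) and 3075 FPKM (3066 to 3085), a log2 ratio of 0.29. MT-RNR2 was 3.16 times as high as MT-RNR1 in live cells and 2.81 times in processed cells. By FPKM, MT-RNR1 ranked 80 in the live library and 47 in the processed one.

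**Figure D2:**
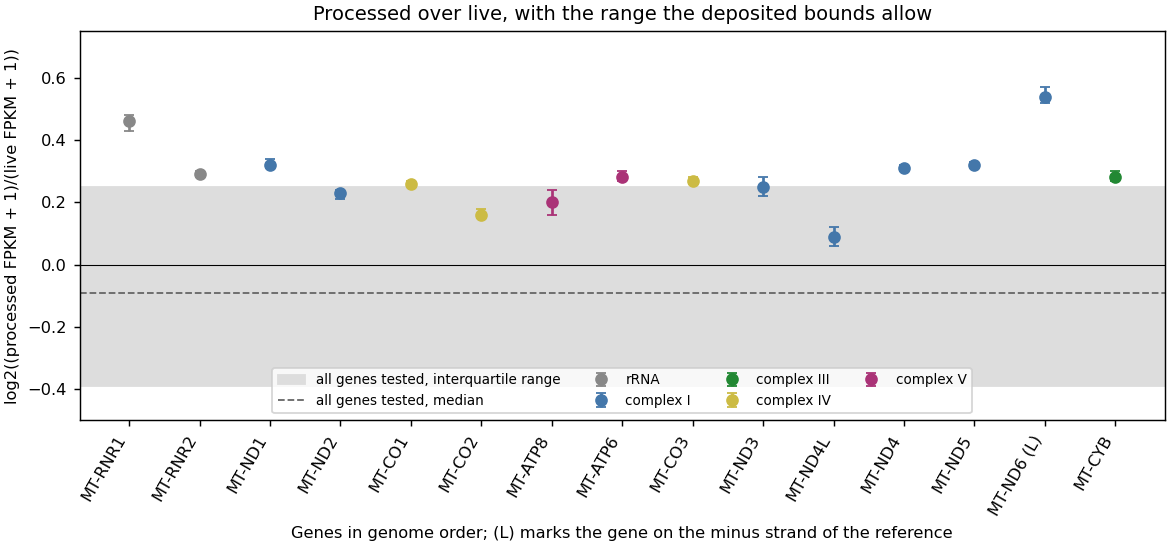
Log2 ratio of processed to live FPKM (y axis, pseudocount 1) for the rRNA and mRNA genes in genome order (x axis), coloured by complex, with bars for the range that the bounds of both libraries allow. The dashed line is the median of all genes tested (-0.09) and the band their interquartile range (-0.39 to 0.25). All 15 genes lie above 0, with MT-ND6 (0.54) and MT-RNR1 (0.46) highest and MT-ND4L (0.09) lowest.

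The order of the mRNA and rRNA levels was nearly the same in both libraries. The 8 highest, from MT-CO1, MT-ATP8, MT-CO3, MT-ATP6 and MT-CO2 to MT-ND4, MT-RNR2 and MT-ND4L, kept their order, and so did the 3 lowest, MT-ND6, MT-ND5 and MT-RNR1. In live cells the bounds of neighbouring genes overlapped for MT-RNR2 with MT-ND4L and for MT-ND2 with MT-ND3. Across the 13 mRNAs the log2 levels of the libraries correlated with a Pearson r of 0.990 (genes of 1 genome in 1 pair of libraries, not independent samples). The SD of the 13 log2 ratios was 0.10.

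The log2 ratio followed no single property of the mRNAs closely. Across the 13 mRNAs Spearman's rho with the log2 ratio was 0.43 for gene length, 0.29 for GC content, 0.31 for the order along the genome and -0.51 for the live FPKM. The live FPKM also enters the ratio. These values describe 13 genes of the same pair of libraries. The 6 mRNAs whose genes end without a full stop codon had a median log2 ratio of 0.28 (0.23 to 0.32), and the 7 with a complete one had 0.26 (0.09 to 0.54). The highest and the lowest ratio thus both belonged to genes with a complete stop codon.

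All 22 tRNA genes were listed at exactly 0 FPKM in both libraries, each with status OK and bounds of 0. They carry the symbols MT-TF, MT-TV, MT-TL1, MT-TI, MT-TQ, MT-TM, MT-TW, MT-TA, MT-TN, MT-TC, MT-TY, MT-TS1, MT-TD, MT-TK, MT-TG, MT-TR, MT-TH, MT-TS2, MT-TL2, MT-TE, MT-TT and MT-TP. Together they supply every amino acid to mitochondrial translation, and 8 of them lie on the minus strand. The shortest and the longest are shown 5′ to 3′ because their size sets them apart from the other members.
MT-TS2, serine (chrM:12207-12265, plus strand, 59 bases): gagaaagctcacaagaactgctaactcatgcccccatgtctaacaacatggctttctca
MT-TL1, leucine (chrM:3230-3304, plus strand, 75 bases): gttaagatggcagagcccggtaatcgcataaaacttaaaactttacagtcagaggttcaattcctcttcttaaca

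Both are shorter than a single read of 80 nt. No gene of this size had a value in either library. Of the 1617 genes in the tables with a locus below 80 bases, mitochondrial or nuclear, 0 were above 0 FPKM in live and 0 in processed cells. The shortest locus with a value above 0 was 96 bases long. Of the 4172 genes from 100 to below 150 bases, 21 (0.503%) had a value in live cells and 10 (0.240%) after processing, and of the 41392 genes of at least 500 bases, 68.9% and 59.0% were. A listed 0 therefore gives no level for the tRNAs, and they were left out of every median and count of direction above.

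**Figure D3:**
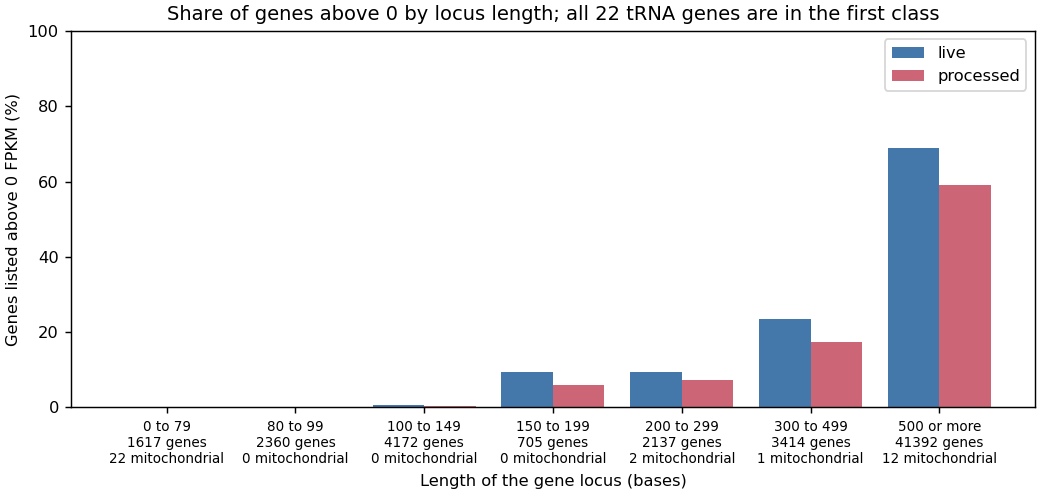
Share of genes listed above 0 FPKM (y axis, percent) by length of the gene locus in bases (x axis) in live and processed cells, with the number of genes and of mitochondrial genes under each class. The share is 0 in both libraries below 80 bases, where the 22 tRNA genes stand, and 68.9% and 59.0% from 500 bases.

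Sequences copied from mitochondrial DNA into the chromosomes, known as nuclear mitochondrial segments, can share reads with the mitochondrial genes. Of 386 nuclear rows with the symbol of such a copy, in the tables or in a later annotation, 8 reached an FPKM of 1 in each library. The copies summed to 590 FPKM in live cells and 673 FPKM after processing. The highest was MTCO1P12 on chromosome 1 (566454 to 567996), which the tables list under a microRNA symbol and which matches MT-CO1 at 98.6% of 1543 aligned bases. It had 353 FPKM in live cells (349 to 356) and 456 FPKM in processed cells (452 to 460), equal to 6.53% and 7.03% of MT-CO1. Its log2 ratio was 0.37.

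The 90 bases in which MTCO1P12 and MT-CO1 differ most, at 4 positions, show how little separates them. Differing bases are in capitals.
MT-CO1 (chrM:6210-6299, plus strand): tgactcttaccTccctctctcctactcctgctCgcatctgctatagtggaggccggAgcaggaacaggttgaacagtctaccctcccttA
MTCO1P12 (chr1:566760-566849, plus strand): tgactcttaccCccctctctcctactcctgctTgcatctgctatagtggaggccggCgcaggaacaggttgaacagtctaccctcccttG

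The other copies on chromosome 1 were lower, and their ratios took both signs. MTCO3P12 (569756 to 570302, 98.2% identical to MT-CO3) had 133 FPKM before and 104 FPKM after processing, a log2 ratio of -0.36, while MT-CO3 itself had 0.27. MTATP6P1 (569076 to 569756) had 49.8 and 48.5 FPKM, with overlapping bounds. MTND2P28 (565020 to 566063) had 42.1 and 49.2 FPKM, a log2 ratio of 0.22 beside 0.23 for MT-ND2. On other chromosomes the highest were MTRNR2L9, with a log2 ratio of 0.56 from 3.07 FPKM in live cells, and MTND4P12 at 2.64 and 3.93 FPKM. The copies that the tables list under other symbols were chosen for mention after their values were seen. Adding the FPKM of these copies to their mitochondrial genes left the median log2 ratio of the mRNAs at 0.27.

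How much of each mitochondrial gene has an identical nuclear copy was counted in windows of 80 bases, the length of a read. MT-CO1 had such a copy for 34.7% of its 1463 windows, MT-ND2 for 32.5% of 963, MT-RNR1 for 26.3% of 875 and MT-ATP6 for 24.1% of 602. By contrast, 0 windows of MT-ATP8, MT-ND3, MT-ND4L, MT-ND4, MT-ND5 and MT-CYB had one. The median log2 ratio was 0.27 (0.09 to 0.32) over these 6 mRNAs and 0.27 (0.16 to 0.54) over the 7 with shared windows. Windows with mismatches were not counted, and MTND4P12, for example, is 95.8% identical to MT-ND4. Spearman's rho between the share of matched windows and the log2 ratio was 0.06 over the 13 mRNAs.

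**Figure D4:**
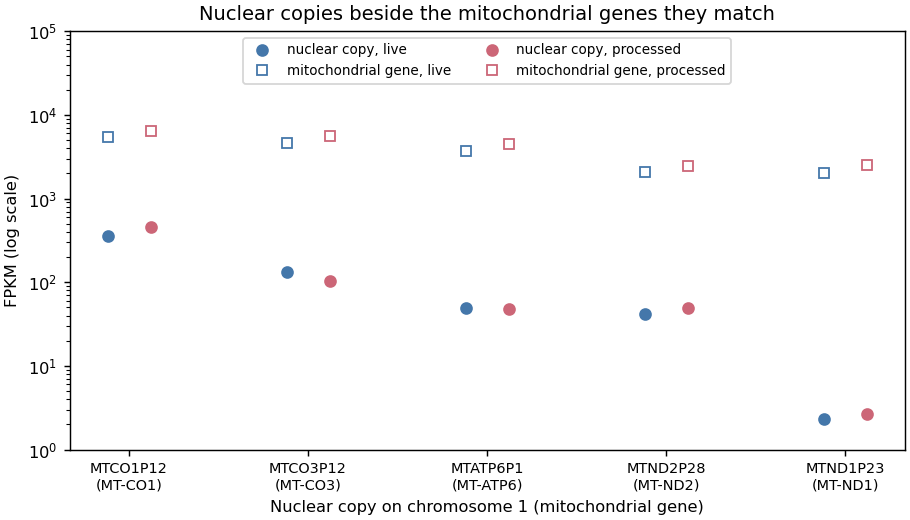
FPKM (y axis, log scale) of nuclear copies on chromosome 1 (filled circles) and of the mitochondrial genes they match (open squares) in live and processed cells, 1 library each. MTCO1P12 is the highest copy, at 353 and 456 FPKM, below MT-CO1 at 5399 and 6486 FPKM, and the copies differ in direction between libraries.

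Respiratory complexes I, III, IV and V join mitochondrial subunits to subunits that are encoded in the nucleus, translated in the cytosol and imported. The mRNAs of 82 nuclear subunits were found in the tables, 79 of them at 1 FPKM or more in either library. Unlike the mitochondrial mRNAs they differed in both directions. The processed value was higher with separate bounds for 21, lower with separate bounds for 26, and the bounds overlapped for 32, beside 28.1% higher and 43.7% lower over all genes tested. Their median log2 ratio was -0.05, which is 0.32 below that of the mitochondrial mRNAs. With processed values divided by the median ratio of all genes, these counts became 33 higher and 14 lower, and the median 0.05. The shares of all genes tested were then 34.8% and 35.7%. This division raises processed values, so the 15 mitochondrial RNAs could only stay higher.

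Within each complex the mitochondrial mRNAs had the higher median ratio. In complex I the median log2 ratio was 0.31 over 7 mitochondrial and -0.01 over 37 nuclear mRNAs. The nuclear mRNAs ranged more widely, from NDUFS4 at 43.3 and 16.7 FPKM (log2 ratio -1.32) to NDUFA3 at 58.9 and 103 FPKM (0.79). In complex III the single mitochondrial mRNA had 0.28 and the 9 nuclear ones a median of -0.01, from UQCRC2 at -0.17 to UQCR11 at 0.39.

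In complex IV the medians were 0.26 over 3 and -0.08 over 12 mRNAs, and COX6B1 had a log2 ratio of -0.34 and NDUFA4 of 0.59. COX4I2, with 1.33 FPKM in live cells and listed at 0 in processed cells, was the other nuclear subunit more than 2-fold lower beside NDUFS4, and 0 were more than 2-fold higher. In complex V the medians were 0.24 over 2 and -0.05 over 17, from ATP5G1 at -0.36 to ATP5L at 0.52. Complex II, succinate dehydrogenase, has nuclear subunits only, and its 4 mRNAs had a median of 0.08, from SDHD at -0.12 to SDHB at 0.44.

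**Figure D5:**
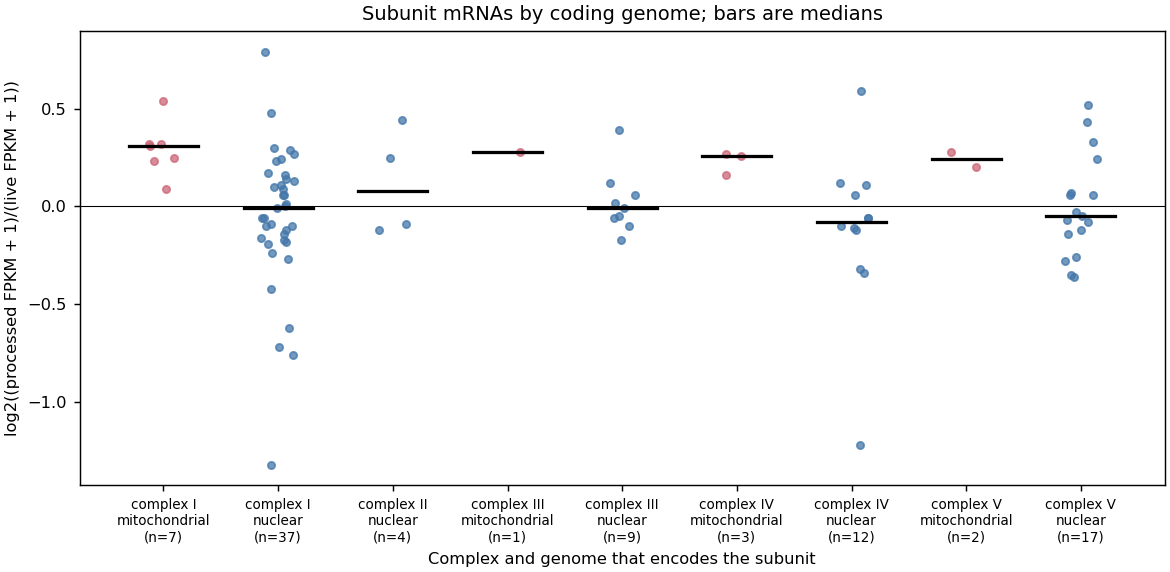
Log2 ratio of processed to live FPKM (y axis, pseudocount 1) for mRNAs of respiratory complex subunits, grouped by complex and by the genome that encodes them (x axis). Points are genes and bars medians. The mitochondrial medians are 0.31, 0.28, 0.26 and 0.24 for complexes I, III, IV and V, and the nuclear ones, as deposited, -0.01, -0.01, -0.08 and -0.05. Division by the median ratio of all genes would raise every point by about 0.10, except that of COX4I2, which is listed at 0 in processed cells.

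The level per length also separated the genomes. The median mitochondrial mRNA of complex I was 45.4 times the median nuclear mRNA of the same complex in live cells (2048 and 45.1 FPKM) and 55.9 times in processed cells (2430 and 43.5 FPKM). For complex III the ratio was 28.5 and 36.0, for complex IV 47.0 and 55.3, and for complex V the medians were 4396 and 95.2 FPKM in live cells and 5172 and 103 FPKM in processed cells. Even the highest nuclear subunit, COX7C at 375 FPKM before and 392 FPKM after processing, was below the lowest mitochondrial mRNA, MT-ND5.

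Nuclear genes of high abundance differed in both directions, with a balance that depended on the scaling. Of the 40 nuclear genes at 1000 FPKM or more in live cells, 10 were higher and 19 lower in processed cells with separate bounds, near the 28.1% and 43.7% of all genes tested, and their median log2 ratio was -0.04. After division by the median ratio of all genes, 24 of the 40 were higher and 10 lower, beside 34.8% and 35.7% of all genes tested, and their median was 0.06. That of the mitochondrial mRNAs was 0.27 as deposited and 0.37 after this division. The highest log2 ratio of the 40 as deposited was 0.32, and the long non-coding RNA H19 had this value, at 3872 and 4822 FPKM. H19 was also the highest of the 40 by level in live cells. The next by live level was EEF1A1P5 (3099 and 2610 FPKM, -0.25). GAPDH, a glycolytic enzyme, followed (2479 and 2353 FPKM, -0.08). Then came RPL41P1 (2377 and 2490 FPKM, 0.07) and the elongation factor EEF1A1 (2303 and 2221 FPKM, -0.05). Markers of liver-like cells also had a higher sum in processed cells, 956 FPKM beside 799 over 3 genes with none at 0, with AFP, ALB and APOA1 each higher. The sum was lower for 3 stromal markers (559 and 521 FPKM), each of them lower, and for 3 pluripotent markers (128 and 105 FPKM). All marker values are as deposited, where the median log2 ratio of all genes tested was -0.09 and 41.7% were above 0. The log2 ratio was -0.48 for COL1A1, -0.09 for VIM and -0.04 for COL3A1. Division by the median ratio of all genes, a shift of about 0.10, would put VIM and COL3A1 above 0. Of the pluripotent markers only LIN28A was lower (119 and 88.7 FPKM). POU5F1 (7.92 and 8.53 FPKM) and NANOG (1.27 and 7.34 FPKM) were higher in processed cells. The 8 endocrine markers summed to 2373 and 2369 FPKM, of which CHGA supplied 1794 and 1741. Their log2 ratio was 0.30 for INS, 0.20 for NEUROD1, 0.13 for SST and 0.11 for PDX1. It was -0.04 for CHGA, -0.05 for GCG, -0.07 for NKX6-1 and -0.00 for ISL1. The acinar sum was 58.4 and 56.8 FPKM and the ductal sum 544 and 520 FPKM. The part of cell composition in the mitochondrial difference was not tested, and more cells of a type and more RNA per cell cannot be told apart in such bulk samples.

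The nuclear genes that transcribe mitochondrial DNA differed in both directions. The RNA polymerase POLRMT had 23.8 and 30.0 FPKM, a log2 ratio of 0.32 with separate bounds. TFAM, which packages the genome and starts transcription, had 20.9 FPKM (20.1 to 21.8) and 10.6 FPKM (10.1 to 11.1), a log2 ratio of -0.92. The elongation factor TEFM had 6.32 and 15.4 FPKM, a log2 ratio of 1.16. For TFB2M, the second initiation factor, the bounds overlapped at 5.94 and 5.45 FPKM, and MTERF, a factor that binds downstream of the rRNA genes, had 6.57 and 4.73 FPKM.

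Genes for processing, stabilizing and degrading mitochondrial RNA were mostly lower in processed cells. Of 19 such genes, 12 were lower with separate bounds, 3 higher and 4 overlapping, beside 43.7% lower over all genes tested. Their median log2 ratio was -0.28. HSD17B10, a subunit of the enzyme that cuts precursors at the 5′ ends of tRNAs, had 39.9 and 23.3 FPKM (log2 ratio -0.75). The 3 with a higher processed value were FASTKD1 (log2 ratio 0.56) and FASTK (0.21), RNA-binding proteins of 1 family, and SUPV3L1 (0.36), the helicase of mitochondrial RNA decay. LRPPRC and SLIRP, which together bind and stabilize mitochondrial mRNAs, had 38.2 and 30.6 FPKM and 113 and 86.1 FPKM. SUPV3L1, FASTK, LRPPRC and SLIRP were chosen for mention after their values were seen. After division by the median ratio the counts were 10 lower and 4 higher, beside 35.7% and 34.8% of all genes tested, with a median of -0.18, while that of the mitochondrial mRNAs was 0.37.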

How the data were processed

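RNA-seq of 1 live and 1 processed Stage 6 sample was analysed. Per the labels and methods, paired reads were aligned to GRCh37/hg19 with STAR 2.2.0c guided by GENCODE annotations, and the authors deposited FPKM per gene between a lower and an upper bound. Labels name Cufflinks 2.0.2 for this step and the methods Cuffdiff of the same version. The mitochondrial sequence used for alignment is not given in the sources used here. Fragment counts were not analysed here, and depth is known only relatively, from steps in low FPKM values of single-transcript genes.

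Libraries were joined by Ensembl identifier. Of the 37 mitochondrial genes, 25 carry clone names in the tables and were named and classed by identifier from GENCODE release 44 lifted to GRCh37. Log2 ratios used a pseudocount of 1. Genes at 1 FPKM or more in either library counted as tested. Calls were more than 2-fold or separate bounds. Sequences came from the GRCh37 reference, and BLAST+ 2.17.0 located nuclear copies. Python 3.11.15, pandas 2.3.3 and scipy 1.17.1 were used, and calculations were tested on simulated data. Named genes were all members, the highest and lowest ratio of each nuclear list at 10 FPKM or more, the highest copies and abundant nuclear genes. Members, lists and rules were chosen with earlier results of these data known.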

Additional observations from a re-analysis of the deposited data

How the results depend on the processing

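With 1 library per condition, neither replicate error nor leaving out a replicate could be assessed. No paired analysis was possible because each group has 1 sample and the labels give no replicate numbers. The 13 mRNAs and 2 rRNAs had the higher value in processed cells under every pseudocount and scaling tried. Both scalings raise processed values, and a pseudocount cannot change a direction, so none of these settings could have reversed it. Over genes at 1 FPKM or more in both libraries the processed value had a median of 0.932 times the live one. Dividing by it shifted log2 ratios by about 0.10, and by less where the processed value was low. The median log2 ratio of the mitochondrial mRNAs, 0.27 as deposited, was then 0.37 (0.19 to 0.64). Rescaling to equal sums off the mitochondrial genome gave 0.33 (0.15 to 0.60). The median of the nuclear-encoded subunits changed sign under these scalings, from -0.05 to 0.05 and 0.01. A common factor shifts this median and that of the mitochondrial mRNAs alike, so their distance of 0.32 was bound to stay nearly the same. The separate-bounds calls of all genes tested moved from 4867 higher and 7570 lower to 6022 and 6180 under the median ratio, and to 5543 and 6703 under equal sums. Leaving out MT-ND6, MT-ATP8, MT-ATP6, MT-ND4L and MT-ND4 gave a median of 0.27. MT-CO3, which shares 1 base with MT-ATP6, was kept. The median was also 0.27 for mRNAs without nuclear matches and after adding nuclear copies, both chosen after seeing the data. The ratio of mitochondrial shares was 1.22 to 1.23 in each alternative. The bounds cover the precision within a library only.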
